A study of Mus musculus with 8 samples.

Results

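The let-7 and miR-98 family was followed in exosomes of mouse amniotic fluid, the small membrane vesicles that cells release into the fluid around the fetus. Its members were taken as the 9 microRNAs (miRNAs) that the array files name mmu-let-7a-5p, mmu-let-7b-5p, mmu-let-7c-5p, mmu-let-7d-5p, mmu-let-7e-5p, mmu-let-7f-5p, mmu-let-7g-5p, mmu-let-7i-5p and mmu-miR-98-5p, out of 1881 mouse miRNAs on the array. The prefix mmu-, for the mouse, is left out in what follows. All 9 were present, and each was measured well above background on all 8 arrays. The study compared 2 groups of 4 samples with 1 single-colour Agilent array each. The LPS group came from mice with preterm birth brought on by lipopolysaccharide, an inflammatory component of the outer membrane of Gram-negative bacteria. It was given into the abdomen at 100 µg per kg on day 14 of pregnancy, and preterm birth was seen about 48 h later. The cesarean group came from cesarean sections and is the control, and whether its mice were injected is not stated. All 8 samples are labelled day 17 of pregnancy, which does not match delivery about 48 h after day 14, so whether the groups had the same gestational age is not settled. The sources used here give no strain. They also do not say whether the samples of a group came from separate animals, so the p-values refer to the spread between the samples as they stand, which may be technical. Exosomes of both groups were isolated on a size-exclusion column, and the arrays hold no protein marker against which that label could be checked.

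The let-7 miRNAs are among the most conserved miRNAs of animals. They build up as cells mature, and they restrain growth and stem cell programs by lowering the products of targets such as Ras, Hmga2, Myc and Lin28. The protein Lin28 in turn blocks the processing of let-7 precursors, miR-98 is counted in the same family because it carries the same seed, and let-7 members have also been described as acting on Tlr4, the receptor for LPS, and on interleukin messages.

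The mature sequences show how little separates the members. They are given here 5′ to 3′ as listed by RefSeq (GRCm38.p6), with the seed, bases 2 to 8, in capitals.
let-7a-5p: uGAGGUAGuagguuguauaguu
let-7b-5p: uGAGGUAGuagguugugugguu
let-7c-5p: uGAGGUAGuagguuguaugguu
let-7d-5p: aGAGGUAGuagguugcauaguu
let-7e-5p: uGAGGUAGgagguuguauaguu
let-7f-5p: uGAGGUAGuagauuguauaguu
let-7g-5p: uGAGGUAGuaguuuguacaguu
let-7i-5p: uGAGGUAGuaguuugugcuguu
miR-98-5p: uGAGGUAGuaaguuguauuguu

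All 9 are 22 bases long and share the seed GAGGUAG, which is carried in the RefSeq table by 11 mature miRNAs in all, the others being let-7k and miR-1961. With positions counted from 1 at the 5′ end and let-7a-5p as the reference, let-7c-5p carries A19G, let-7e-5p carries U9G and let-7f-5p carries G12A. let-7b-5p carries A17G and A19G, let-7d-5p carries U1A and U16C, let-7g-5p carries G12U and U18C, and miR-98-5p carries G11A and A19U. let-7i-5p is farthest from let-7a-5p, with 4 changes, G12U, A17G, U18C and A19U. Over the 36 pairs of members, 4 pairs differ at 1 base, 10 pairs at 2 bases and 11 pairs at 3 bases.

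Each member had 2 probes of 18 to 22 bases, each complementary to its miRNA from one of bases 1 to 5 up to base 22, the last, so that all cover some or all of the seed. The brighter probe of each member, which stands for it in the values given here, is printed 5′ to 3′. Capitals mark the bases opposite a change from let-7a-5p. They do not mark every base by which a probe can tell members apart. The let-7a-5p probe has no capitals, yet the other members differ from it.
let-7a-5p probe: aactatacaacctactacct
let-7b-5p probe: aacCaCacaacctactacc
let-7c-5p probe: aacCatacaacctactacc
let-7d-5p probe: aactatGcaacctactacc
let-7e-5p probe: aactatacaacctCctacc
let-7f-5p probe: aactatacaaTctactacctc
let-7g-5p probe: aactGtacaaActactacctc
let-7i-5p probe: aacAGCacaaActactacctc
miR-98-5p probe: aacAatacaacTtactacctca

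The 12 probes of 6 members, let-7a-5p to let-7f-5p, were 1 mismatch away from another member. The let-7a-5p probes were 1 mismatch from let-7c-5p, let-7d-5p, let-7e-5p and let-7f-5p. The let-7b-5p probes were 1 mismatch from let-7c-5p, the let-7c-5p probes were that close to let-7a-5p and let-7b-5p, and the let-7d-5p, let-7e-5p and let-7f-5p probes each to let-7a-5p. The 6 probes of let-7g-5p, let-7i-5p and miR-98-5p were at least 2 mismatches from every other member. Of the 20 pairings of a probe with another member at 1 mismatch, 8 placed a G opposite a U or a T, which still forms a wobble pair. One of these is the let-7d-5p probe on let-7a-5p (C16U, a probe G opposite a U). Another is the let-7f-5p probe on let-7a-5p (A12G, a probe T opposite a G). The longest unbroken run of paired bases in these 20 pairings was 10 to 16 bases. What share of a member's signal comes from its relatives was not measured.

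The probes map to the following places on mm9, the build named in the file headers, in some cases over an interval 1 base shorter than the probe. On chromosome 13 the let-7a-5p probe lies at chr13:48633562-48633581, the let-7f-5p probe at chr13:48633206-48633226 and the let-7d-5p probe at chr13:48631400-48631417, all on the minus strand. The end coordinates of the first and the second are 355 bases apart and those of the second and the third 1809. A second let-7a-5p copy lies at chr9:41344817-41344836 within the long noncoding RNA gene Mir100hg. A second let-7f-5p copy lies at chrX:148346897-148346917 and miR-98-5p at chrX:148347773-148347793, both within the gene of the ubiquitin ligase Huwe1. Their end coordinates are 876 bases apart. On chromosome 15, let-7c-5p lies at chr15:85537049-85537067 and let-7b-5p at chr15:85537759-85537776, both within the long noncoding RNA gene Lncppara. The end coordinates of these are 709 bases apart. A second let-7c-5p copy lies at chr16:77599920-77599938. let-7e-5p lies at chr17:17967334-17967351 within Spaca6, let-7g-5p at chr9:106081179-106081198 within Wdr82, and let-7i-5p at chr10:122422703-122422722. The holding genes are named from the RefSeq table of another build and without coordinates. The mature products of the 2 copies of let-7a, let-7c or let-7f are read by the same probes and cannot be told apart.

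In exosomes of the LPS group let-7d-5p rose, and let-7f-5p, let-7i-5p and let-7a-5p lay above the cesarean group on every array without passing the test, while let-7b-5p and let-7c-5p lay nearly level. Values are log2 signals after scaling each array to a common 75th percentile. They compare arrays for 1 probe, and they do not rank the members by abundance. Differences are LPS minus cesarean ± SE from limma, with Benjamini-Hochberg adjustment over the 470 miRNAs tested. In bulk fluid of this kind, vesicles from fewer cells and less RNA per cell or vesicle cannot be told apart.

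let-7d-5p read 8.36, 8.21, 7.91 and 8.10 on cesarean replicates 1 to 4 and 9.06, 10.01, 9.62 and 9.07 on LPS replicates 1 to 4. All 4 LPS arrays lay above all 4 cesarean arrays, and LPS replicate 2 was the highest. The group means were 8.14 ± 0.19 and 9.44 ± 0.46 (SD, n = 4 each), a difference of 1.30 ± 0.27 or 2.46-fold with a 95% confidence interval of 0.70 to 1.90 (limma adjusted p = 0.0294). let-7d-5p was the member that passed the test, and it ranked 11 among the 470 miRNAs by p. The arrays lay on 1 slide, with a cesarean and an LPS array in each of its 4 columns, and the difference within a column was 0.70, 1.80, 1.71 and 0.97. With the column as a block the adjusted p of let-7d-5p was 0.124. It was 0.373 without scaling between arrays, 0.386 with scaling to spike-in probes, 0.0627 with the total signal per miRNA and 0.195 with no filter on dim miRNAs, all in limma. The call was also lost when any 1 cesarean array, LPS replicate 2 or LPS replicate 3 was left out, and over the 8 such fits the difference ran from 1.11 to 1.42 and the adjusted p from 0.0140 to 0.0841. The LPS arrays filled one row of the slide and the cesarean arrays the other, and an effect of the slide row cannot be told apart from that of the group.

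let-7f-5p, which shares the chromosome 13 cluster with let-7d-5p, read 9.08, 8.91, 8.81 and 8.61 on the cesarean arrays and 9.35, 10.82, 10.25 and 9.47 on the LPS arrays. The groups did not overlap, but the LPS arrays spread widely, with replicates 2 and 3 far above replicates 1 and 4. The difference was 1.12 ± 0.34 (2.18-fold, interval 0.38 to 1.87, limma adjusted p = 0.0744). With 1 array left out it passed in 1 of 8 limma fits, at 1.33 without LPS replicate 1 (adjusted p = 0.0250). In the other fits it was 0.84 to 1.29, lowest without LPS replicate 2 (adjusted p = 0.147), and the adjusted p reached 0.179.

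let-7a-5p, the third member of that cluster, read 9.95, 10.01, 9.80 and 9.77 on the cesarean arrays and 10.28, 11.02, 10.66 and 10.08 on the LPS arrays. The cesarean arrays were tight (SD 0.12, n = 4), and the lowest LPS array was just above the highest of them. The difference was 0.62 ± 0.25 (1.54-fold, interval 0.06 to 1.19, limma adjusted p = 0.165).

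let-7i-5p, which is transcribed from a place of its own, read 9.17, 9.06, 8.45 and 9.05 on the cesarean arrays and 9.87, 9.9999, 9.94 and 9.40 on the LPS arrays. Cesarean replicate 3 lay apart below the other cesarean arrays, and LPS replicate 4 was the lowest LPS array, still above all of the cesarean ones. The difference was 0.87 ± 0.25 (1.83-fold, interval 0.31 to 1.43, limma adjusted p = 0.0696).

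let-7g-5p, whose gene lies in Wdr82, read 9.06, 9.30, 8.73 and 9.22 on the cesarean arrays and 9.80, 9.49, 9.60 and 9.22 on the LPS arrays. The lowest LPS array fell within the cesarean range. The difference was 0.45 ± 0.23 (interval -0.07 to 0.97, limma adjusted p = 0.247).

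miR-98-5p gave the signal nearest to background, at 4.77, 4.86, 4.43 and 4.58 on the cesarean arrays and 5.13, 5.58, 5.44 and 4.83 on the LPS arrays, against a floor of 3.75 set at the lowest signal well above background. LPS replicate 4 fell just inside the cesarean range. The difference was 0.58 ± 0.24 (interval 0.05 to 1.12, limma adjusted p = 0.167).

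let-7e-5p, from the chromosome 17 locus, read 7.19, 6.55, 6.57 and 6.37 on the cesarean arrays and 6.70, 7.96, 7.54 and 7.11 on the LPS arrays. Cesarean replicate 1 was the highest of its group and LPS replicate 1 the lowest of its own, and they overlapped. The difference was 0.66 ± 0.31 (interval -0.04 to 1.35, limma adjusted p = 0.223), and within the 4 slide columns it ran from -0.49 to 1.41.

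let-7b-5p and let-7c-5p, the chromosome 15 pair, were mixed between the groups. let-7b-5p read 9.86, 10.48, 9.94 and 10.02 on the cesarean arrays and 10.59, 10.04, 10.20 and 9.83 on the LPS arrays. let-7c-5p read 10.78, 10.99, 10.59 and 10.64 on the cesarean arrays and 11.17, 10.82, 10.92 and 10.52 on the LPS arrays. For both, LPS replicate 1 was the highest array and LPS replicate 4 the lowest of all 8, so the LPS range enclosed the cesarean range. The difference was 0.09 ± 0.25 for let-7b-5p (interval -0.47 to 0.65, limma adjusted p = 0.874). It was 0.11 ± 0.23 for let-7c-5p (interval -0.40 to 0.61, limma adjusted p = 0.822). Changes of either sign within these intervals are compatible with the 4 arrays a group.

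**Figure D1:**
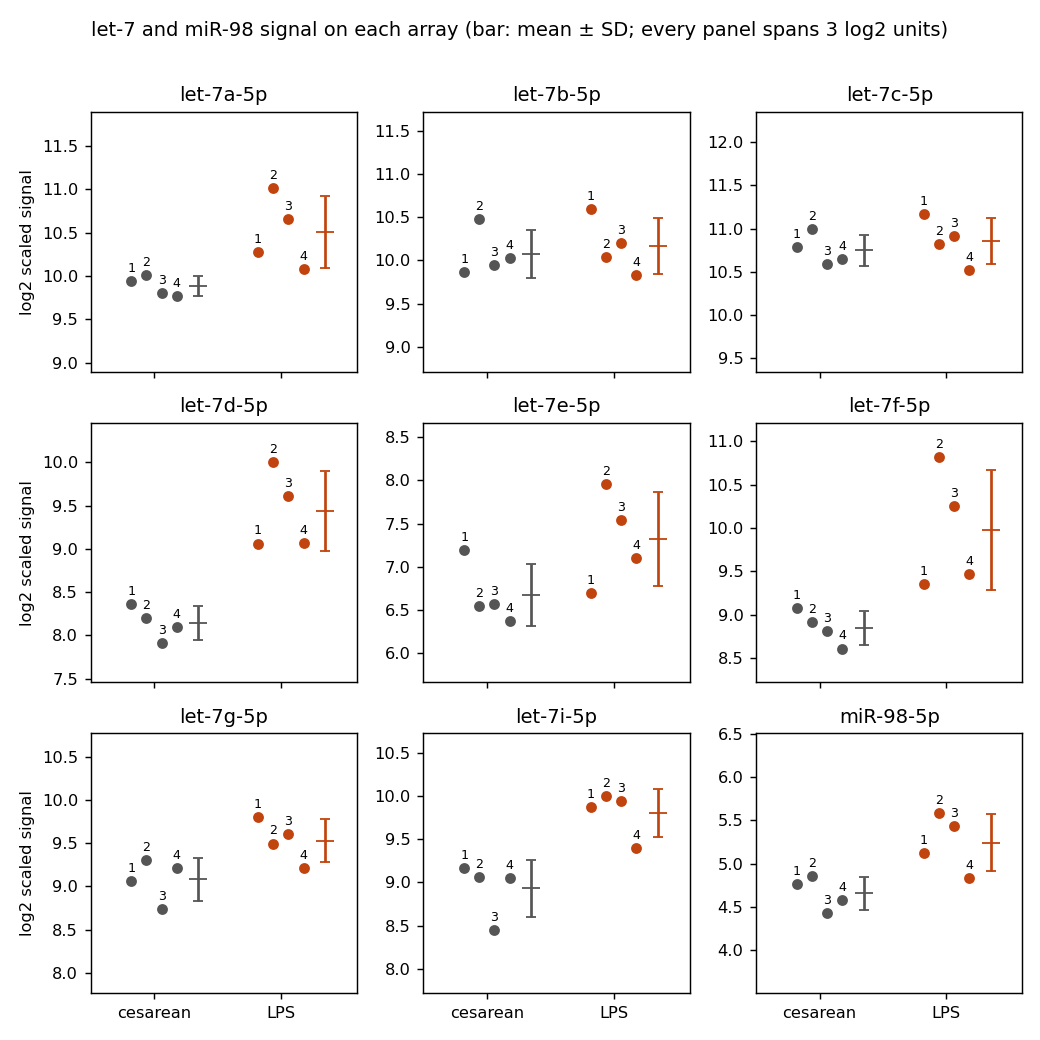
Log2 scaled signal of each member (y axis, 3 log2 units in every panel) on each array, with grey points for the 4 cesarean and orange points for the 4 LPS arrays, numbered by replicate, and a bar for the mean ± SD. The groups are apart for let-7a-5p, let-7d-5p, let-7f-5p and let-7i-5p and overlap for the other members.

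The difference was above 0 for 9 of 9 members, ranging from 0.09 to 1.30 with a median of 0.62, although for let-7b-5p and let-7c-5p it turned to -0.057 and -0.039 without scaling between arrays, to -0.038 and -0.020 with scaling to spike-in probes, and for let-7b-5p to -0.054 without LPS replicate 1. Over all 470 miRNAs tested the median was -0.06, and 45.5% lay above 0. Without scaling the median of all miRNAs moved to -0.20 and that of the members to 0.48. Of the 9 members, 1 (11.1%) passed the adjusted test with a higher signal, against 2.55% of all miRNAs tested, and 0 passed with a lower signal (2.34% of all). At an unadjusted p of 0.05 in limma, 5 members (55.6%) passed, all higher, against 13.8% of all miRNAs, and 0 were lower, against 11.3%. All 4 LPS arrays lay above all 4 cesarean arrays for 4 members (44.4%), against 9.79% of all miRNAs. Within the slide columns the difference was above 0 in 4 of 4 for let-7a-5p, let-7d-5p, let-7f-5p, let-7i-5p and miR-98-5p, in 3 for let-7e-5p and let-7g-5p and in 2 for let-7b-5p and let-7c-5p. These counts describe the members, which are near-identical in sequence and are not independent of each other.

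The members did not follow 1 pattern over the LPS arrays. Relative to its own cesarean mean, let-7f-5p stood 1.98 higher on LPS replicate 2 and 0.50 higher on LPS replicate 1. let-7d-5p stood 1.86 higher on LPS replicate 2 and 0.92 on LPS replicate 1, and let-7e-5p 1.29 and 0.03. On LPS replicate 2 the order was thus led by let-7f-5p and let-7d-5p, and let-7b-5p stood at -0.04. On LPS replicate 1 let-7b-5p stood at 0.52 and let-7c-5p at 0.42, close to let-7a-5p at 0.39. LPS replicate 2 was the highest LPS array for 6 members, let-7a-5p, let-7d-5p, let-7e-5p, let-7f-5p, let-7i-5p and miR-98-5p. LPS replicate 1 was the highest for the other 3, let-7b-5p, let-7c-5p and let-7g-5p. LPS replicate 4 was the lowest LPS array for let-7a-5p, let-7b-5p, let-7c-5p, let-7g-5p, let-7i-5p and miR-98-5p, with let-7b-5p at -0.25 and let-7c-5p at -0.23 there.

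**Figure D2:**
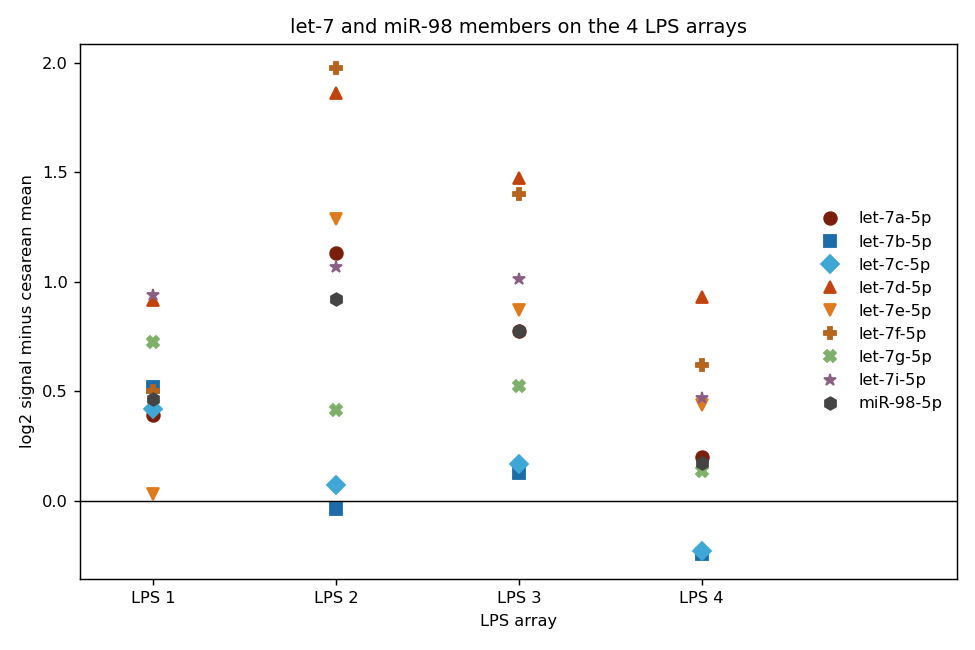
Log2 signal of each member on the 4 LPS arrays minus its mean over the 4 cesarean arrays (y axis), with 1 symbol per member and a line at 0. let-7d-5p and let-7f-5p stand at 1.86 and 1.98 on LPS replicate 2, while let-7b-5p and let-7c-5p stay between -0.25 and 0.52 over the 4 arrays, on either side of 0.

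Members were then compared with each other in how much they differed between the groups, through the gap between a pair of members on the same array, which cancels anything that raises or lowers a whole array. The size of a gap depends on the probes and has no meaning of its own, so only its change between groups was read. Each of the 36 pairs was put to an exact permutation test, two-sided, which runs through the 70 ways to split 8 arrays evenly and can give no p below 0.0286. The gap did not overlap between the groups in 8 pairs, each at that smallest p. None of the 36 pairs passed Benjamini-Hochberg adjustment, where the smallest adjusted p was 0.129, and at least 21 pairs at the smallest p would have been needed for any to pass. The 8 pairs were let-7d-5p against let-7a-5p, let-7c-5p, let-7e-5p and miR-98-5p, let-7g-5p against let-7b-5p and let-7c-5p, let-7i-5p against let-7c-5p, and let-7e-5p against let-7f-5p. In some of them the groups nearly touched. For let-7e-5p minus let-7f-5p the highest LPS gap was -2.3631 and the lowest cesarean gap -2.3623. For let-7b-5p minus let-7g-5p these were 0.790 and 0.799. How often the gap does not overlap in pairs of other miRNAs was not counted.

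The gap of let-7d-5p to let-7a-5p, from the same cluster, was -1.59, -1.81, -1.89 and -1.67 on the cesarean arrays and -1.21, -1.01, -1.04 and -1.01 on the LPS arrays. All 4 LPS arrays lay above the cesarean ones, and the spread within a group was small (SD 0.14 and 0.10, n = 4 each). The gap changed by 0.67 (exact permutation p = 0.0286, adjusted over the 36 pairs 0.129). This sets a 19-base let-7d-5p probe against the 20-base let-7a-5p probe. With the 19-base probe of both members, a comparison chosen after seeing the data, the probes differ at 1 base, opposite base 16, and the change was 0.35, as the 19-base let-7a-5p probe itself differed by 0.94. That gap was -0.05 ± 0.12 in the cesarean and 0.31 ± 0.11 in the LPS group (SD, n = 4 each), again without overlap (exact permutation p = 0.0286, not adjusted).

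let-7d-5p against let-7c-5p moved further, from a gap of -2.61 ± 0.16 in the cesarean group to -1.42 ± 0.53 in the LPS group (SD, n = 4 each), a difference of 1.19 with the same exact p. Its LPS values were scattered. let-7a-5p against let-7c-5p, which differ at 1 base, moved from -0.87 ± 0.08 to -0.35 ± 0.45, a difference of 0.52 that overlapped between the groups (exact permutation p = 0.114, adjusted 0.196). let-7b-5p against let-7c-5p was -0.67 ± 0.17 in the cesarean and -0.69 ± 0.09 in the LPS group, a difference of -0.02 (exact permutation p = 0.857, adjusted 0.882). The gap of let-7d-5p to let-7f-5p, its other cluster neighbour, changed by 0.17 (exact permutation p = 0.286, adjusted 0.381).

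**Figure D3:**
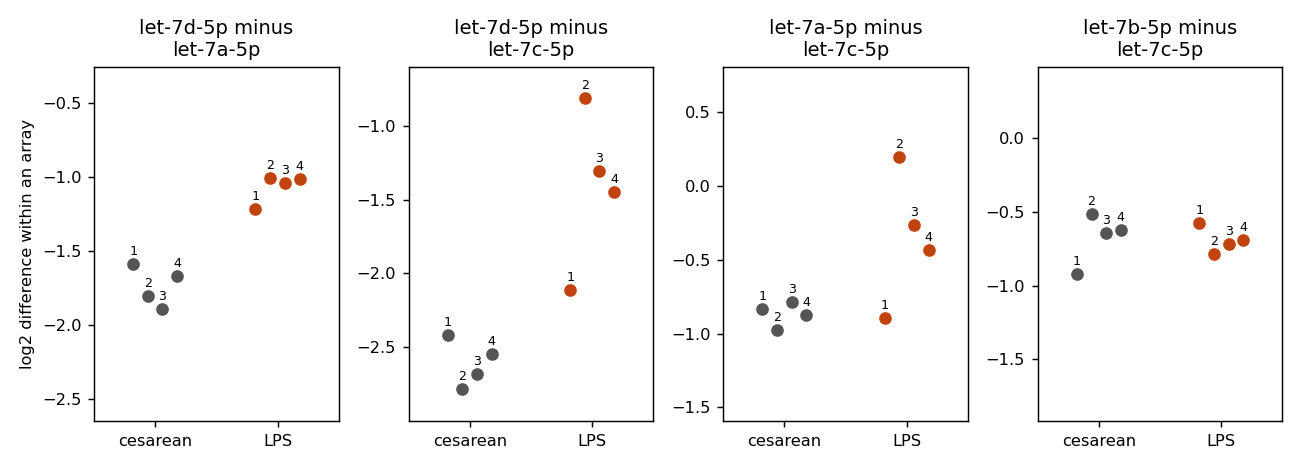
Log2 gap within an array (y axis, the same span in each panel) for 4 pairs of members, with grey points for cesarean and orange points for LPS arrays, numbered by replicate. The groups are apart for let-7d-5p against let-7a-5p and against let-7c-5p, and they overlap for let-7a-5p against let-7c-5p and for let-7b-5p against let-7c-5p.

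Members that differ at fewer bases did not always move together more tightly over the 8 arrays. The SD of the gap over the 8 arrays was lowest, 0.105, for let-7a-5p and miR-98-5p, which differ at 2 bases and whose probes are 2 mismatches apart. It was next lowest, 0.127, for let-7b-5p and let-7c-5p, which differ at 1 base. The other 3 pairs at 1 base all involve let-7a-5p and varied more, with an SD of 0.274 to let-7e-5p, 0.347 to let-7f-5p and 0.408 to let-7c-5p. The median SD was 0.31 over the 4 pairs at 1 base, 0.36 over the 10 pairs at 2 bases, 0.42 over the 11 pairs at 3 bases and 0.41 over the 11 pairs at 4 or more bases. The ranges overlapped at every step, and the largest SD, 0.815, belonged to let-7b-5p and let-7f-5p, which differ at 3 bases. Bases were counted over the whole mature sequence, also where the probes do not read base 1. let-7a-5p and let-7d-5p, counted at 2 bases with an SD of 0.376, are 1 mismatch apart for the probes of either. The SD over the 8 arrays includes the change of a gap between the groups, which was 0.67 for let-7d-5p against let-7a-5p. Pooled within the groups, the SD was 0.120 for that pair, 0.111 for let-7a-5p and miR-98-5p and 0.137 for let-7b-5p and let-7c-5p. From let-7a-5p it was 0.295 to let-7e-5p, 0.239 to let-7f-5p and 0.324 to let-7c-5p. The 36 pairs share their arrays and members, so this is a description with no test.

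**Figure D4:**
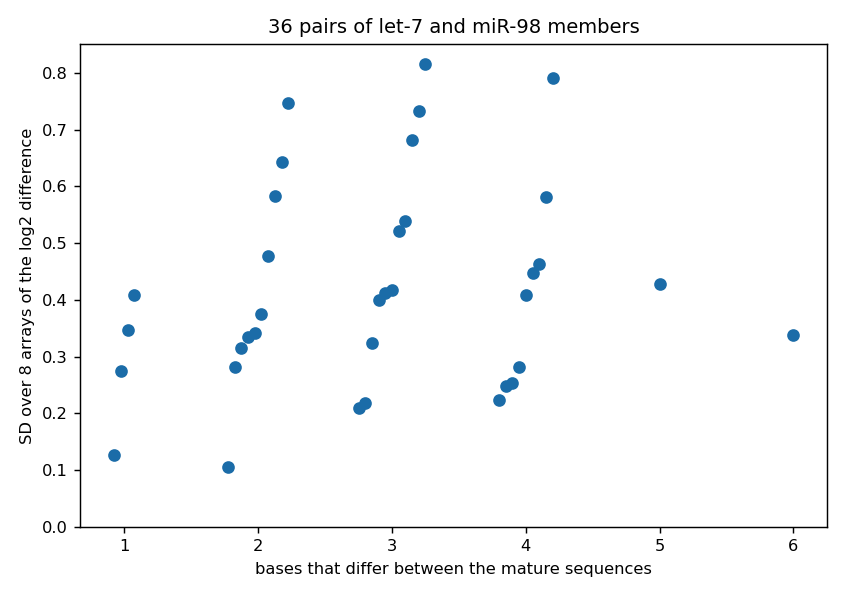
SD over the 8 arrays of the log2 gap between 2 members (y axis) against the number of bases at which their mature sequences differ (x axis, points spread sideways), 1 point per pair. Pairs at 1 base lie between 0.127 and 0.408 and pairs at 2 bases between 0.105 and 0.748. The SD includes any change of the gap between the groups.

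Measured on centred profiles over the 8 arrays, miR-98-5p came nearest to the mean of the other members (root mean square deviation 0.0505) and let-7b-5p lay farthest from it (0.454). The nearest member to let-7d-5p was let-7f-5p (0.195), and let-7b-5p and let-7c-5p were each other's nearest (0.119).

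Both probes of a member gave the same sign in 9 of 9 members, and all 18 probes had a difference above 0, against 43.3% of the 887 probes tested, with those of let-7b-5p and let-7c-5p close to 0. Fitted by probe, 3 of the 18 passed the adjusted test with a higher signal, against 2.82% of all probes tested. They were both let-7d-5p probes, at 1.45 for the 18-base probe (limma adjusted p = 0.0257) and 1.30 for the 19-base probe (0.0282), and the 20-base let-7i-5p probe at 1.06 (0.0425). All LPS arrays lay above all cesarean arrays for 8 probes, both probes of let-7a-5p, let-7d-5p, let-7f-5p and let-7i-5p, against 8.91% of all probes. Without scaling, with scaling to spike-in probes or with the slide column as a block 0 of the 18 passed, and without LPS replicate 1 the count was 7.

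In each member the shorter probe was the dimmer one. For let-7a-5p the 19-base probe gave 0.94 and the 20-base probe 0.62, a gap of 0.32 that was the largest within a member. On the single arrays the 19-base let-7a-5p probe read 8.31, 8.24, 8.13 and 8.07 in the cesarean group and 8.69, 9.86, 9.31 and 8.67 in the LPS group. For let-7f-5p the probes gave 1.39 and 1.12, for let-7i-5p 1.06 and 0.87, and for let-7e-5p 0.80 and 0.66. The dimmer probe thus gave the larger difference for 5 members, let-7a-5p, let-7d-5p, let-7e-5p, let-7f-5p and let-7i-5p. For the other 4 the differences lay close together, at 0.45 and 0.41 for let-7g-5p, 0.58 and 0.57 for miR-98-5p, 0.11 and 0.07 for let-7c-5p and 0.09 for both let-7b-5p probes. The SD of the distance between a member's probes over the 8 arrays was 0.027 for let-7c-5p and 0.209 for let-7a-5p, the lowest and the highest of the 9 members.

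**Figure D5:**
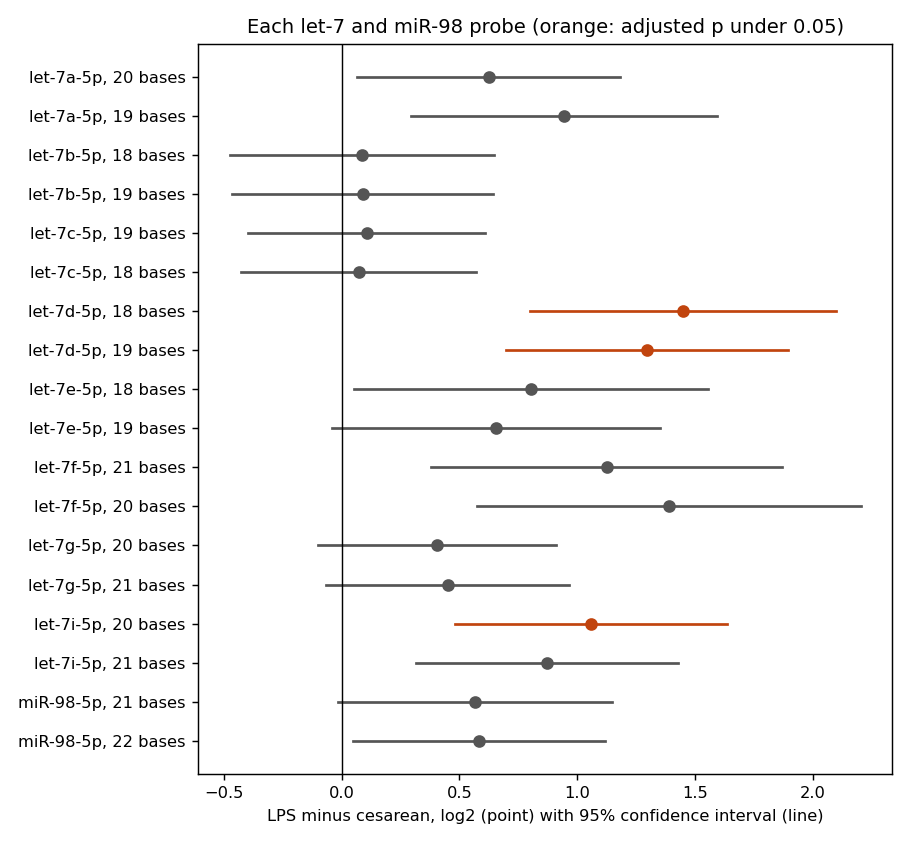
Difference between groups for each of the 18 probes (LPS minus cesarean, log2, x axis; lines are 95% confidence intervals), with probe length in the label and orange for an adjusted p under 0.05. Both let-7d-5p probes and the 20-base let-7i-5p probe are orange, and the let-7b-5p and let-7c-5p probes lie near 0, at 0.07 to 0.11, where a change of scaling turned the sign of the values for both members.

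Some probes of other miRNAs nearly match a member, and their signal was read on the same arrays. Taking at least 15 aligned bases and at most 2 mismatches, a limit chosen after the probes were seen, 10 probes of 5 other miRNAs (let-7j, let-7k, miR-1961, miR-3962 and miR-3970) came close to a member. One probe from each miRNA at 1 mismatch is printed 5′ to 3′, to show how near these come to the members' own probes.
let-7j probe: ataacagcacaaactaatac
let-7k probe: cacacaacctcctacc
miR-3962 probe: aaatgtacaaactactacct

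The let-7j probe matches let-7i-5p over 18 bases with 1 mismatch and hangs over its end by 2 bases. The let-7k probe matches let-7b-5p over 16 bases with 1 mismatch, and the miR-3962 probe matches let-7g-5p over 20 bases with 1 mismatch. None of the 10 probes was well above background on any of the 8 arrays. On the linear scaled signal, where the floor is 13.5, the printed let-7j probe reached at most 5.98, the printed let-7k probe at most 6.66 and the printed miR-3962 probe at most 4.68. The members they nearly match had median signals of 625, 1045 and 614 with their brighter probes on the same scale. These probes differ from the members' own probes in length or sequence, so they do not measure the cross-reaction between the members themselves.

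The relatives and neighbours of the family were read from the same fit. let-7j and let-7k, both listed as let-7 miRNAs, were not well above background on any array, and miR-202-3p, a miRNA with a closely related seed, differed by -0.00 ± 0.28 (limma adjusted p = 0.998). All 11 passenger arms, the 3p strands cut from the other side of the let-7 and miR-98 hairpins, were well above background on no array.

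Several let-7 genes are transcribed together with the miR-99, miR-100 and miR-125 genes, whose seeds differ from that of let-7. Of 11 such cluster partners on the array 7 were tested, and 0 passed in limma. At an unadjusted p of 0.05 in limma, 2 of the 7 were lower, against 11.3% of all miRNAs tested. The median difference of the 7 was -0.26, with 6 below 0 and 1 above. Over all miRNAs tested the median was -0.06, and 45.5% lay above 0. miR-125b-5p, encoded near let-7a-2 and near let-7c-1, read 11.01, 10.74, 10.06 and 10.59 on the cesarean arrays and 9.97, 9.46, 9.99 and 9.19 on the LPS arrays. Its LPS arrays lay below all of its cesarean arrays, as in 7.23% of all miRNAs tested, with a difference of -0.95 ± 0.29 (limma adjusted p = 0.0771). miR-125a-3p, encoded beside let-7e, differed by -1.12 ± 0.36 (limma adjusted p = 0.0837), with overlapping groups.

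The other 5 partners were nearer to 0. miR-100-5p, encoded near let-7a-2, differed by -0.43 ± 0.27 and miR-99a-5p, encoded near let-7c-1, by -0.14 ± 0.26. From the let-7e locus, miR-125a-5p differed by -0.24 ± 0.24, miR-99b-3p by -0.26 ± 0.33 and miR-99b-5p by 0.08 ± 0.24. Their adjusted p-values in limma were 0.342 or higher. Whether a let-7 member and its cluster partner differed in their change was not tested.

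The non-member miRNAs whose centred profile over the 8 arrays lay nearest to the family mean were sought among 329 candidates that were above background on every array, where the median distance was 0.625. They were miR-29b-3p at a distance of 0.168 and a difference between groups of 0.85, miR-151-5p at 0.179 with 0.76, miR-26a-5p at 0.187 with 0.69, miR-146a-5p at 0.206 with 0.79 and miR-185-5p at 0.225 with 0.46. Nearest to let-7d-5p were miR-155-5p at a distance of 0.230 with a difference of 1.09, miR-200c-3p at 0.241 with 1.42 and miR-29b-3p at 0.259 with 0.85, where the median distance was 0.891. These distances rest on 8 arrays in 2 groups and carry no test.

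Marker lists of cell types whose miRNAs could be in the fluid were read from the same fit, to be set against the 2.55% of all miRNAs tested that passed with a higher signal and the 45.5% above 0. The summed signal of the 9 members was 12.29 to 12.68 on the cesarean arrays and 12.59 to 13.26 on the LPS arrays, on the log2 scale. The epithelial miRNAs of the miR-200 family had differences above 0 in 5 of 5, of which miR-200c-3p, miR-200b-3p and miR-200a-3p passed, and their summed signal was 9.51 to 9.94 on the cesarean and 10.49 to 11.13 on the LPS arrays. The red cell miRNAs miR-451a, miR-144-3p and miR-486a-5p had differences above 0 in 3 of 3, and sums of 13.08 to 13.94 and 13.78 to 14.92. Of these miR-144-3p passed, but it was well above background on 0 cesarean and 4 LPS arrays. It entered the test only through the LPS group, and its cesarean values all lay at the floor. The brighter miR-451a and miR-486a-5p did not pass (limma adjusted p = 0.0814 and 0.171).

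Of 4 leukocyte miRNAs 3 were tested, 2 above and 1 below 0, of which miR-142a-3p passed. It was well above background on 3 cesarean and 4 LPS arrays, and its cesarean values, 3.75 to 4.26, lay at or near the floor. The sums of the list were 9.45 to 9.82 on the cesarean and 9.33 to 9.85 on the LPS arrays. They came mainly from the brightest of the list, miR-223-3p, at 8.73 to 9.42 and 8.90 to 9.55. The liver miRNA miR-122-5p read 3.75 to 7.02 and 5.04 to 9.81, the striated muscle list 7.55 to 8.46 and 6.47 to 10.29, and the skin list 7.35 to 7.90 and 7.12 to 10.90. In these 3 lists 0 passed in limma, also at an unadjusted p of 0.05. The 2 neural miRNAs were not tested, and their signal came mainly from cesarean replicate 1, at 7.78 for miR-9-5p and 6.47 for miR-124-3p. On the other cesarean arrays miR-9-5p read at most 4.13, and miR-124-3p lay at the floor. Each was well above background on 2 cesarean arrays and on 0 LPS arrays. The sums were 4.75 to 8.27 on the cesarean arrays and at the floor, 4.75, on the LPS arrays. The part of these cell types in the let-7 differences was not tested. The arrays detected between 405 and 554 miRNAs each.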

How the data were processed

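Exosomal RNA of 8 mouse amniotic fluid samples was measured on Agilent arrays. The deposited intensity values are linear, background-subtracted spot signals read with Agilent Feature Extraction 10.7.1.1 per the file headers, and the submitters' processing notes name version 9.1. How the miRNAs were labelled is not settled, since the labels name a cRNA kit. The authors' deposited log2 values were normalized between arrays by a method not given in the sources used here (column medians 2.14 to 2.15). They served as an alternative, and each of their columns matched its own array best (r from 0.964 to 0.972).

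Control spots and spots with outlier marks were left out (2.99% to 3.48% of the miRNA spots), and 0 miRNA spots were saturated. Signals were divided by each array's 75th percentile over 618 probes detected on all arrays, raised to a floor of 13.5 and put on the log2 scale. The brightest probe stood for a miRNA. miRNAs well above background on at least 3 of 4 arrays of either group were tested with limma 3.58.1 in R 4.3.3 (lmFit, eBayes, two-sided, threshold 0.05), on scripts tested on simulated data. The files were handled with data.table (1.17.8), Python (3.11.15) and pandas (2.3.3), and matplotlib (3.10.9) drew the figures. Replicate numbers follow the order of deposition and pair no samples. None of the 28 pairs of arrays held identical values. The number of arrays limits the precision.

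The members and lists were chosen with earlier results of these data known. By rule the text names the 9 members with their probes, the tested miRNAs of the lists of relatives and cluster partners, the 5 nearest non-members by profile and, for a member that passed, the 3 nearest. The markers named and the near-matching probes come from the lists and limits stated beside them. Alternatives changed the scaling, the background correction, the source of the values (the authors' values in place of the spots), the way probes were combined, the floor, the filter on dim miRNAs, eBayes settings or the slide column, or left out an array.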

Additional observations from a re-analysis of the deposited data

Results flagged for a closer look

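The let-7i-5p signal on cesarean replicate 3 was 8.45, while the other 3 cesarean arrays lay between 9.05 and 9.17. Its gap to the nearest of them took up 0.844 of the group's whole range, above Dixon's critical value of 0.829 for 4 samples. It was the 1 value so found among 34 groups of 4 arrays checked, and chance alone marks about 1 in 20 such groups. Without this array the let-7i-5p difference was 0.71 in place of 0.87, with a limma adjusted p of 0.158 in place of 0.0696.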

How the results depend on the processing

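Each of 23 alternatives was run with one choice changed at a time. One of them, the most specific probe per member, picked the probes already in use and could change nothing, which leaves 22. The count of members passed with a higher signal, 1 as reported, was 0 without scaling, with scaling to spike-in probes, with the total signal per miRNA, with no filter on dim miRNAs and with a block for the column of the slide, and 2 with quantile normalization, the deposited value table or the mean of probes. Leaving out 1 array gave 0 to 2 members. The count of probes passed, 3 as reported, was 0 without scaling, with spike-in scaling and with the column as a block, and 0 to 7 with 1 array left out. let-7b-5p turned to -0.057 without scaling and -0.038 with spike-in scaling, and with 1 array left out it ran from -0.054 (without LPS replicate 1) to 0.22. let-7c-5p turned to -0.039 without scaling and -0.020 with spike-in scaling, and with 1 array left out it ran from 0.0026 (without LPS replicate 1) to 0.22 (without LPS replicate 4). miR-98-5p was 0.26 with normexp background correction, against 0.58. That correction adds an offset of 50 to each spot signal, while the brighter miR-98-5p probe read 21.6 to 47.9 on the linear scaled signal. How far the offset accounts for the smaller difference was not tested. No member passed with a lower signal under any alternative. The test of pairs needs 21 pairs at its smallest p, and gaps within an array cancel most changes of scaling, so its count of 0 throughout says nothing about stability. The median difference of the members ran from 0.46 to 0.77. let-7d-5p passed in 11 of the 22, with differences from 1.11 to 1.42 and adjusted p from 0.0140 to 0.386 in limma. let-7f-5p passed in 1 and let-7i-5p in 3, and the other 6 members in none. The member nearest to background was miR-98-5p, whose dimmer probe was well above it on 3 of the 4 cesarean arrays.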
